A study of Mus musculus with 15 samples.

Results

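The genes described here encode the proteasome, the barrel-shaped protease that degrades ubiquitin-tagged proteins. Members were chosen by symbol: Psma, Psmb, Psmc, Psmd, Psme, Psmf or Psmg followed by a number, read by a probe set whose annotation names exactly 1 gene. Where a gene had several such probe sets, the one with the highest mean over the 15 arrays was used. Measured changes played no part in this choice of probe set. Of 17097 genes measured, 45 were members, and 43 of these were among the 13523 genes bright enough to test. To be tested, a gene had to exceed the 40th percentile of values on 3 or more arrays. Each tested member but 2 did so in all 15 arrays, the exceptions being Psmg2 in 11 and Psmg4 in 13. The 2 members that were too dim are the germ-cell α subunit gene Psma8, which read 4.08 to 4.38 on the log2 scale, and the thymus β subunit gene Psmb11, which read 3.73 to 4.45. Psmc6, Psmd10 and Psme4 were not analysed here.

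RNA came from cells sorted by flow cytometry for PDGFRa, a growth factor receptor of interstitial fibroblasts, from kidneys of adult C57BL/6 mice. There were 5 groups of 3 arrays, named here by the running number in the labels: arrays 13 to 15 from uninjured kidney, and arrays 1 to 3, 4 to 6 and 7 to 9 from kidney 3, 7 and 14 days after folic acid. Arrays 10 to 12 came from kidney after 14 days of unilateral ureteral obstruction (UUO). Folic acid causes acute tubular injury, and a tied ureter causes progressive fibrosis. All 5 groups were sorted on the same marker, and no genetic alteration is given for any of them. The labels do not tell whether arrays within a group stem from separate mice, so p-values measure only the spread among these samples, possibly a technical spread. All values are log2 values as deposited. Changes are differences of group means with their standard error (SE), and p-values come from limma with Benjamini-Hochberg adjustment over the 13523 genes tested. A gene is said to have risen or fallen only at an adjusted p under 0.05.

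The core particle of the proteasome stacks outer α rings on inner β rings. The β subunits Psmb5, Psmb6 and Psmb7 carry the chymotrypsin-like, caspase-like and trypsin-like proteolytic sites. Interferon-gamma induces Psmb8, Psmb9 and Psmb10, which replace Psmb5, Psmb6 and Psmb7 in newly built particles to form the immunoproteasome, a variant known for producing peptides for MHC class I presentation. The regulatory particle binds the ends of the core. Its ATPases (Psmc genes) unfold substrates and its other subunits (Psmd genes) bind and remove ubiquitin. Psme1 and Psme2 form an alternative, interferon-induced cap. When proteasome activity is insufficient, the transcription factor Nfe2l1 is known to raise most constitutive subunit genes together through antioxidant response elements. In a fibrosing kidney, fibroblasts become secretory cells with a high load of newly made protein.

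The sorted populations differed between groups in more than injury. The mean over 10 fibroblast markers was 5.62 to 6.46 in the 3 uninjured arrays and 7.74 to 9.70 in the 12 injury arrays. In uninjured kidney Cdh11, a cadherin of mesenchymal cells, had a mean of 4.05, below the 40th percentile of the arrays (4.54 to 4.69). The mean over 11 proximal tubule markers was 8.65 to 9.89 in uninjured arrays, 6.76 to 6.87 at folic acid day 3 and 5.54 to 6.09 in UUO. It was 8.62 in array 4 of day 7 and 9.38 and 9.29 in arrays 7 and 8 of day 14, against 5.71 to 7.39 in arrays 5, 6 and 9. Macrophage and dendritic cell markers averaged 5.36 ± 0.18 (SD, n = 3) in uninjured kidney, 8.54 ± 0.47 at day 7, 8.49 ± 0.73 at day 14 and 6.33 ± 0.14 in UUO. In such RNA, fewer cells of a type and less RNA per cell cannot be told apart. Injury and fibroblast marker content cannot be told apart in any comparison with uninjured kidney, because no injury array lay as low as an uninjured one.

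More proteasome genes rose than fell in each injury group, as was also so for all genes tested. The calls fell on 12 of the 43 genes. At folic acid day 3, 10 of 43 members rose and 0 fell, where 10.6% of all genes tested rose and 6.39% fell. At day 7, 5 members rose and 1 fell (7.5% and 4.19% of all genes). At day 14, 5 rose and 0 fell (4.2% and 1.47%). In UUO, 5 rose and 2 fell (9.07% and 7.52%). An F test for any difference among the 5 groups called 6 members, Psmb3, Psmc4, Psmb4, Psmd6, Psmd2 and Psmb7, against 15.3% of all genes, a share of the members close to that background. Psmb3, Psmb4, Psmc4, Psmd2 and Psmd6 rose in all 4 comparisons with uninjured kidney, which share their control arrays, as did 2.87% of all genes. In total 12 members were called in at least 1 of these comparisons and 31 in none. The 12 are 27.9% of the members, near the 25.3% of all genes called in at least 1.

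The median change over the 43 members was 0.52 at day 3, 0.23 at day 7 and 0.23 at day 14, with medians over all genes tested of 0.02, 0.01 and 0.02. In UUO the median of the members was 0.16 with an all-gene median of -0.01, and it was -0.05 when the arrays were quantile normalized again. That setting lowered the other medians to 0.32 at day 3 and 0.02 at both later folic acid times. At day 3, 36 of 43 members lay above 0 (83.7%, against 51.7% of all genes). The number was 29 at day 7, 31 at day 14 and 25 in UUO. Quantile normalization left 8 members higher and 1 lower at day 3, 2 and 2 at day 7, 4 and 0 at day 14 and 5 and 3 in UUO. The same setting moved the split of all called genes from 1440 higher and 864 lower to 1255 and 1204 at day 3. The split moved from 1014 and 566 to 897 and 841 at day 7, and from 568 and 199 to 516 and 352 at day 14. In UUO it turned from 1227 higher and 1017 lower to 1193 and 1277. Single arrays mattered as well. The count of 10 at day 3 was 6 without array 2, 13 or 15. The count of 6 at day 7 was 1 without array 5 or 14, 2 without array 2, 13 or 15 and 3 without array 4 or 10. The count of 5 at day 14 was 2 without array 13 or 15 and 3 without array 7, 9 or 14, and the 6 members of the F test were 3 without array 14.

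**Figure D1:**
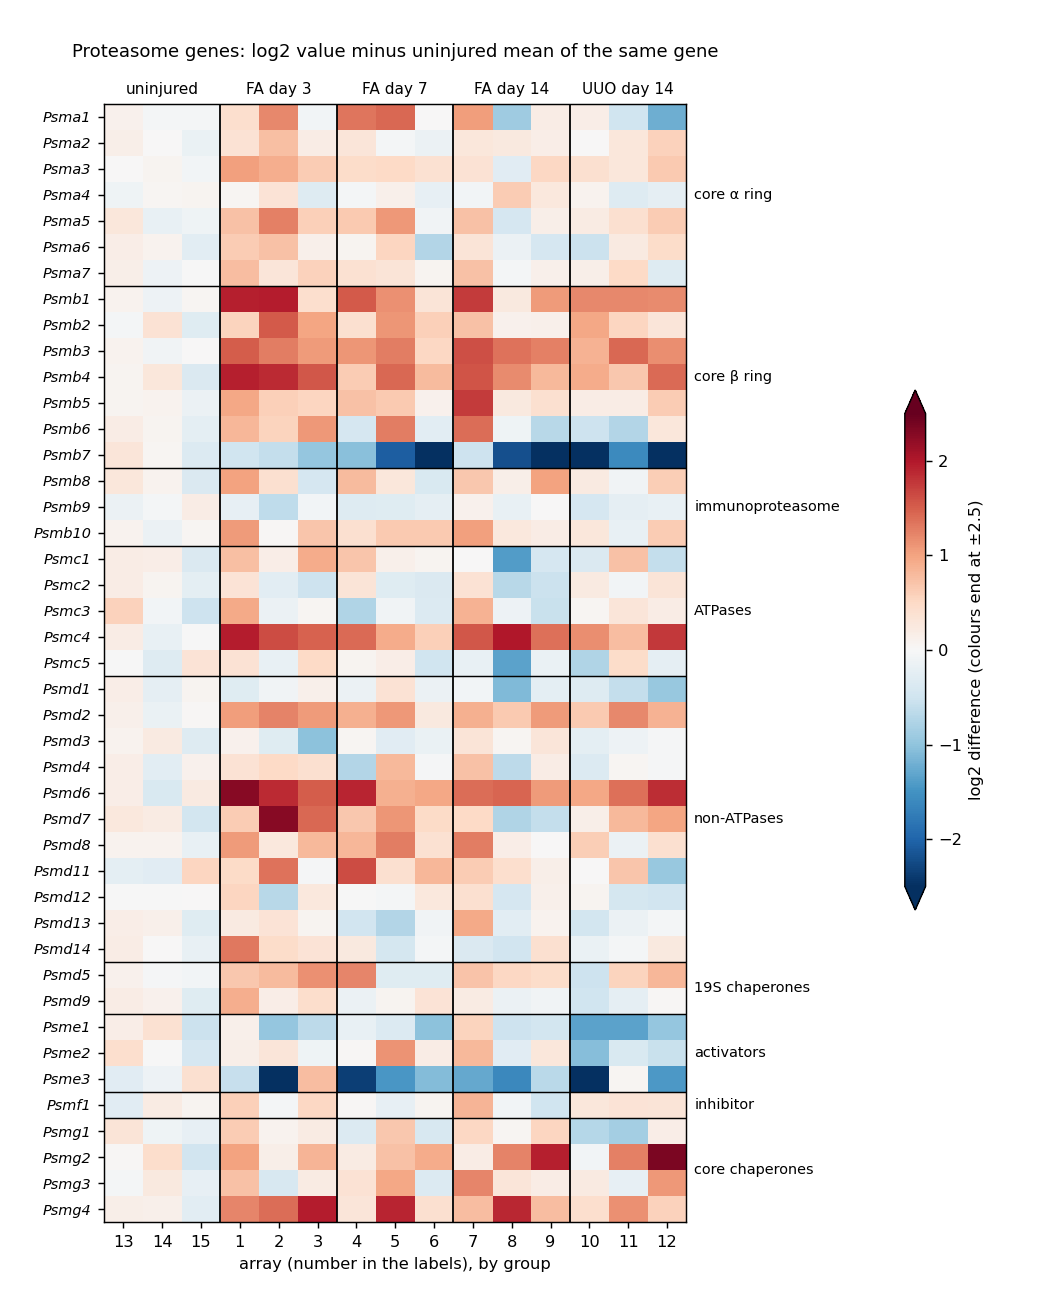
Each of the 43 tested members (rows, by role) in each of the 15 arrays (columns, by group), as the log2 value minus the mean of the 3 uninjured arrays for that gene, with colours ending at ±2.5. Psmb3, Psmb4, Psmc4, Psmd2 and Psmd6 lie above 0 (red) in all 12 injury arrays. So do Psmb1, Psmb2, Psmb5 and Psmg4, by little in some arrays. Psmb7 is blue in all 12, and most other rows vary from array to array within a group.

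Within the α ring, which gates entry to the core, 1 of 7 tested members rose at day 3. That is 14.3%, near the 17.0% of all genes called in either direction there. None passed the test in the other comparisons with uninjured kidney. Psma3, an α subunit, read 9.14, 9.01 and 8.75 at day 3 and 8.11, 8.17 and 8.05 in uninjured kidney. Its day 3 arrays all lay above the uninjured arrays. It rose by 0.86 (SE 0.19, 1.81-fold, adjusted p = 0.00948), and by 0.51 with an adjusted p of 0.0710 under quantile normalization. All 7 α genes had positive changes at day 3, from 0.02 for Psma4 to 0.86 for Psma5, and 4 of them had an unadjusted p under 0.05. By day 14 the 7 changes had narrowed to between -0.08 and 0.27, and none had an unadjusted p under 0.05. In UUO they ran from -0.51 for Psma1 to 0.44 for Psma3. Psma1 varied widely within groups, with an SD of 0.96 at day 14 against 0.10 in uninjured kidney.

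The constitutive β ring held the largest share of called members. At day 3, 4 of 7 were higher, and at day 7, 2 were higher and 1 lower. At day 14, 2 were higher, and in UUO 2 were higher and 1 lower. Called members made up 57.1%, 42.9%, 28.6% and 42.9% of the ring. Of all genes, 17.0%, 11.7%, 5.67% and 16.6% were called in either direction. The median change of its 7 genes was 1.03, 0.70, 0.79 and 0.60 in that order. The genes that rose, Psmb1, Psmb2, Psmb3 and Psmb4, encode β subunits without a proteolytic site, and the gene that fell, Psmb7, encodes the trypsin-like subunit.

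Psmb3, a structural β subunit, read 9.24, 9.07 and 9.15 in the 3 uninjured arrays and 10.67, 10.43 and 10.21 at folic acid day 3. It read 10.25, 10.43 and 9.67 at day 7, 10.77, 10.50 and 10.41 at day 14 and 10.03, 10.60 and 10.31 in UUO. The lowest injury array, array 6 of day 7, lay above the highest uninjured array. Psmb3 rose by 1.28 at day 3 (SE 0.21, 2.43-fold, adjusted p = 0.00144), 0.96 at day 7 (adjusted p = 0.0118), 1.41 at day 14 (adjusted p = 0.00221) and 1.16 in UUO (SE 0.21, 2.24-fold). In arrays 7 and 8, whose proximal tubule mean lay within the uninjured range, Psmb3 was at 10.77 and 10.50. A dimmer probe set for the gene, with a mean of 5.72, had changes of 1.06, 0.67, 0.93 and 0.08 and was not called. The mean of the probe sets was not called at day 7 or in UUO (adjusted p = 0.0726 and 0.147).

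Psmb4, another structural β subunit, whose tail helps core precursors to join, read 7.29, 7.50 and 6.86 in uninjured kidney. It was highest at day 3, at 9.17, 9.08 and 8.78, and read 7.86, 8.65 and 8.01 at day 7. Day 14 gave 8.78, 8.40 and 8.03, and UUO gave 8.14, 7.90 and 8.62. No injury array overlapped the uninjured arrays, and the day 3 arrays also lay above every day 7 array. Psmb4 rose by 1.79 at day 3 (SE 0.27, 3.47-fold, adjusted p = 0.000829), 0.96 at day 7 (adjusted p = 0.0391), 1.19 at day 14 (adjusted p = 0.0236) and 1.00 in UUO (SE 0.27, adjusted p = 0.0238). The day 7 call was lost on leaving out any of 7 single arrays, under quantile normalization and with only the 6 arrays compared. The day 14 call was lost without array 7, 13 or 15 and with only the 6 arrays compared, and the UUO call without array 12, 13 or 15. The Psmb4 difference between day 7 and day 3, -0.84, had an unadjusted p of 0.00908 and an adjusted p of 0.228.

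Psmb1 and Psmb2, also without a proteolytic site, rose at day 3, and their changes in the other injury groups missed the threshold. Psmb1 read 7.81, 7.84 and 6.29 at day 3 against 5.96, 5.74 and 5.92 in uninjured kidney, and rose by 1.44 (SE 0.44, adjusted p = 0.0421). That call was lost on leaving out any of 10 single arrays, with adjusted p-values up to 0.142 over all settings. Its changes afterwards were 1.00 (day 7), 1.02 (day 14) and 1.20 (UUO), with adjusted p-values of 0.167, 0.215 and 0.0867. Psmb2 rose by 1.03 at day 3 (SE 0.29, adjusted p = 0.0306; 0.68 and 0.135 under quantile normalization) and had changes of 0.70, 0.32 and 0.60 afterwards. The later differences from day 3 were not called for either gene.

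Psmb7, the trypsin-like subunit, went the other way. It read 8.52, 8.27 and 7.88 in uninjured kidney and 7.73, 7.62 and 7.26 at day 3. It read 7.17, 6.16 and 5.46 at day 7, 7.70, 6.02 and 5.44 at day 14 and 5.28, 6.63 and 4.82 in UUO. All 12 injury arrays lay below all 3 uninjured arrays, but the spread within the later groups was wide. Psmb7 fell by 2.65 in UUO (SE 0.59, 6.28-fold lower, adjusted p = 0.00876), and this call was kept in all settings run, with log2 changes from -3.18 to -2.27. It fell by 1.96 at day 7 (SE 0.59, adjusted p = 0.0499), a call lost on leaving out any of 11 single arrays. At day 14 its change was -1.84 (adjusted p = 0.0941), and -2.50 without array 7 (adjusted p = 0.0274). At day 3 its change was -0.69 (95% confidence interval -1.97 to 0.59, adjusted p = 0.464). Arrays 7 and 4, the brightest for Psmb7 in their groups at 7.70 and 7.17, were also the brightest of their groups for proximal tubule markers, at 9.38 and 8.62. In other arrays the order differed. Array 8 had a tubule mean of 9.29 with Psmb7 at 6.02, and in UUO array 11 had the highest Psmb7, at 6.63, with the lowest tubule mean, at 5.54. The day 3 arrays kept Psmb7 at 7.26 to 7.73 with tubule means of 6.76 to 6.87. The part of tubule RNA in this fall was not tested.

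**Figure D2:**
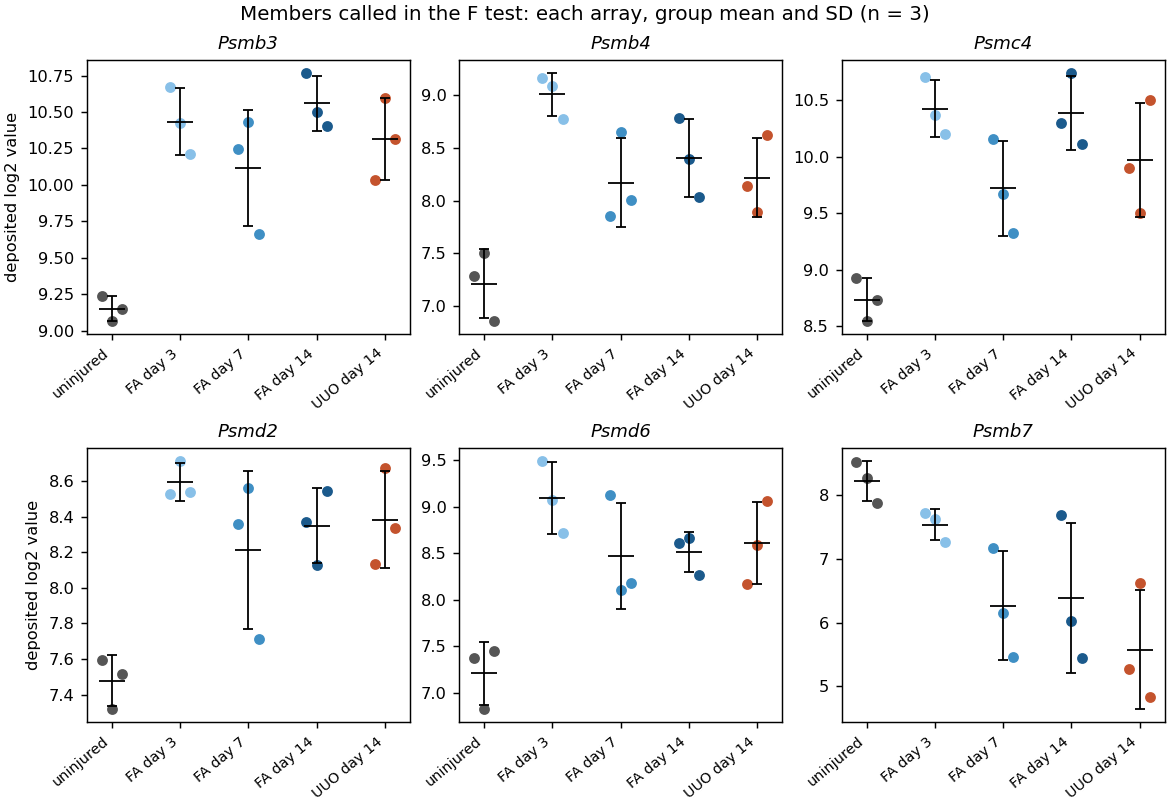
Deposited log2 values of the 6 members called by the F test in each array (points), with group means and SD (n = 3 arrays). In Psmb3, Psmb4, Psmc4, Psmd2 and Psmd6 every injury array lies above the uninjured arrays, and in Psmb7 every injury array lies below them. The F test picked these genes on the same values, so this separation adds no support. The share of all genes separated in this way was not counted. The vertical axes differ between panels and do not start at 0.

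The other catalytic subunits of the constitutive core did not pass the test. Psmb5, the chymotrypsin-like subunit, read 7.16, 7.18 and 6.95 in uninjured kidney. After folic acid it read 8.07, 7.69 and 7.64 at day 3, 7.83, 7.75 and 7.20 at day 7 and 8.84, 7.34 and 7.49 at day 14. In UUO it read 7.29, 7.28 and 7.74. Every injury array lay above the uninjured arrays, some by little, and array 7 stood far above the other day 14 arrays. Its changes were 0.70, 0.49, 0.79 and 0.34 with adjusted p-values of 0.171, 0.375, 0.199 and 0.550. Without array 7 the day 3 change of 0.70 passed the test (adjusted p = 0.0313).

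Psmb6, the caspase-like subunit, read 8.06, 7.96 and 7.63 in uninjured kidney and 8.72, 8.43 and 8.96 at day 3. It read 7.46, 9.16 and 7.62 at day 7, 9.29, 7.78 and 7.19 at day 14 and 7.37, 7.14 and 8.17 in UUO. The day 3 arrays lay above the uninjured arrays, and from day 7 on 1 array of each group lay above them while the others lay near or below. Its changes were 0.82 at day 3 (SE 0.52, adjusted p = 0.311), 0.20, 0.20 and -0.32. The day 7 and day 14 values were -0.07 and -0.06 under quantile normalization.

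No subunit of the immunoproteasome passed the test in any comparison with uninjured kidney, and none had an unadjusted p under 0.05. Psmb8, the inducible chymotrypsin-like subunit, read 6.23, 6.05 and 5.59 in uninjured kidney and 6.96, 6.36 and 5.54 at day 3. It read 6.75, 6.23 and 5.57 at day 7, 6.62, 6.11 and 6.95 at day 14 and 6.18, 5.87 and 6.58 in UUO. Every injury group overlapped the uninjured arrays. The changes were 0.33, 0.23, 0.61 and 0.25, and the interval at day 14 ran from -0.22 to 1.43, so an increase of more than 2-fold there was within the error. At day 7 the change was -0.06 without array 4.

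Psmb9, the inducible subunit that replaces Psmb6, had the narrowest spread of the catalytic subunits. It read 7.50, 7.59 and 7.84 in uninjured kidney, 7.43, 7.01 and 7.57 at day 3 and 7.32, 7.35 and 7.41 at day 7. Day 14 gave 7.75, 7.46 and 7.66, and UUO gave 7.22, 7.42 and 7.46. The day 7 and UUO arrays lay just below the uninjured arrays. The changes were -0.30 (95% confidence interval -0.65 to 0.04), -0.28 (-0.63 to 0.06), -0.02 (-0.36 to 0.33) and -0.27 (-0.62 to 0.07), so none of the intervals reached a 2-fold increase. Under quantile normalization the day 3 and day 7 changes, -0.58 and -0.52, passed the test as falls (adjusted p = 0.0217 and 0.0435). The other 2 probe sets of the gene had changes from -0.31 to 0.34 and were not called.

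Psmb10, the inducible trypsin-like subunit, read 7.32, 7.10 and 7.30 in uninjured kidney, 8.30, 7.26 and 7.93 at day 3 and 7.63, 7.89 and 7.89 at day 7. Day 14 gave 8.26, 7.50 and 7.43, and UUO gave 7.52, 7.04 and 7.87. The day 7 and day 14 arrays lay above the uninjured arrays, and 1 array at day 3 and 1 in UUO did not. The changes were 0.59, 0.57, 0.49 and 0.24, with adjusted p-values of 0.186, 0.234, 0.373 and 0.637.

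**Figure D3:**
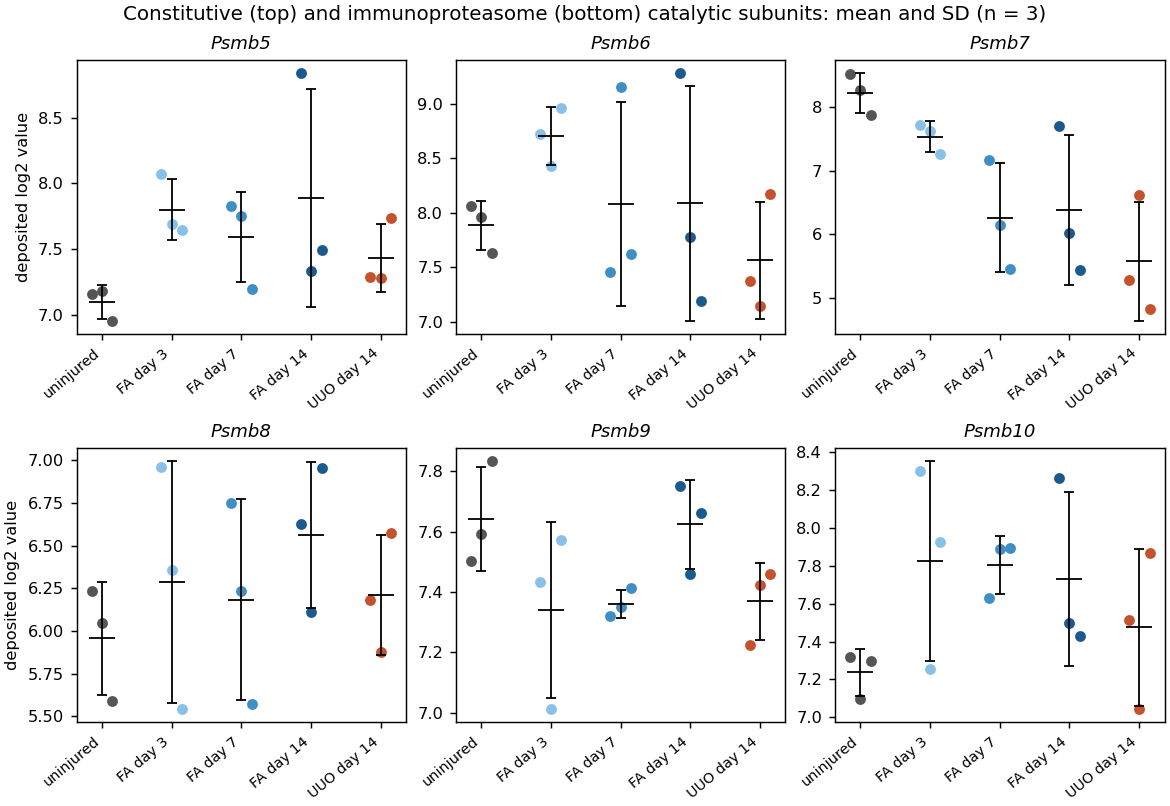
Deposited log2 values of the constitutive catalytic subunits Psmb5, Psmb6 and Psmb7 (top) and of the inducible subunits Psmb8, Psmb9 and Psmb10 that replace them (bottom), each array as a point with the group mean and SD (n = 3 arrays). Psmb7 is lower in every injury array, and the inducible subunits show no change that passed the test. The vertical axes differ between panels and do not start at 0.

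Each inducible subunit was also set against its constitutive partner within the same array, as the difference of their log2 values relative to the uninjured mean. Probe sets of different genes differ in brightness, so only the shift of this difference is given, without a test. For Psmb10 and Psmb7 the difference shifted by 1.28 ± 0.57 (SD, n = 3) at day 3 and by 2.53 ± 1.00, 2.33 ± 0.72 and 2.89 ± 1.35 in the later folic acid groups and UUO, with an SD of 0.35 among uninjured arrays. All 12 injury arrays lay above 0.62 and the uninjured arrays lay between -0.21 and 0.40. The larger part of each shift came from Psmb7, which changed by -0.69, -1.96, -1.84 and -2.65. Psmb10 changed by 0.59, 0.57, 0.49 and 0.24 in the same order and was not called. For Psmb8 and Psmb5 the shifts were -0.37 ± 0.52, -0.27 ± 0.29, -0.18 ± 0.84 and -0.08 ± 0.16, all within about 1 SD of 0. For Psmb9 and Psmb6 the day 3 shift was -1.13 ± 0.07, with Psmb6 above and Psmb9 below its uninjured mean in all 3 arrays, and the later shifts were -0.48 ± 0.95, -0.22 ± 1.01 and 0.05 ± 0.50.

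In the regulatory particle, 4 of 16 tested subunits rose at day 3, and 3 rose at each later time and in UUO, with 0 falls. The called share was 25.0% at day 3 and 18.8% in each other group, against 17.0%, 11.7%, 5.67% and 16.6% of all genes called in either direction. After folic acid its median change was 0.51, 0.05 and 0.07 in order of time, and in UUO it was -0.03 (0.03 with median centring). Under quantile normalization these medians were 0.20, -0.12, -0.08 and -0.18, with 4, 1, 2 and 3 subunits higher and 1 lower in UUO.

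Psmc4, 1 of the ATPases that thread substrates into the core, read 8.93, 8.55 and 8.73 in uninjured kidney and 10.71, 10.37 and 10.20 at day 3. It read 10.16, 9.67 and 9.33 at day 7, 10.30, 10.75 and 10.11 at day 14 and 9.90, 9.50 and 10.51 in UUO. All injury arrays lay above all uninjured arrays, including arrays 4, 7 and 8, which had the brightest tubule markers of the injury arrays. Psmc4 rose by 1.69 at day 3 (SE 0.28, 3.23-fold, adjusted p = 0.00143), 0.98 at day 7 (adjusted p = 0.0386), 1.65 at day 14 (SE 0.28, 3.13-fold, adjusted p = 0.00488) and 1.23 in UUO (adjusted p = 0.00931). A separate probe set of the gene rose by 1.60, 0.92, 1.07 and 0.93, called each time over all probe sets (adjusted p up to 0.00883). The day 7 call was lost on leaving out any of 7 single arrays and under quantile normalization.

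The other 4 ATPase genes, Psmc1, Psmc2, Psmc3 and Psmc5, were not called, with changes between -0.60 and 0.61. These subunits sit in the same ring as Psmc4 in equal numbers. Psmc1 was 8.80 ± 0.40 at day 3 and 7.59 ± 0.72 at day 14, a difference of -1.21 with an unadjusted p of 0.0103 and an adjusted p of 0.138.

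Of the 11 non-ATPase subunits, Psmd2 and Psmd6 rose in all 4 comparisons and Psmd7 rose at day 3. Psmd6, a subunit of the lid, which releases ubiquitin from substrates, read 7.37, 6.82 and 7.44 in uninjured kidney and 9.50, 9.07 and 8.72 at day 3. It read 9.12, 8.10 and 8.19 at day 7, 8.61, 8.67 and 8.27 at day 14 and 8.17, 8.59 and 9.06 in UUO. No injury array overlapped the uninjured arrays. Psmd6 rose by 1.88 at day 3 (SE 0.31, 3.69-fold, adjusted p = 0.00154), the largest change of any member there, and by 1.26, 1.30 and 1.40 later (adjusted p = 0.0226, 0.0303 and 0.00908). A separate probe set of Psmd6 rose at day 3, by 1.34 (adjusted p = 0.00241 over probe sets), and had changes of 0.30, 0.12 and 0.54 later that were not called. Averaged over probe sets, its day 14 change of 0.71 was not called (adjusted p = 0.0993). The day 14 call was also lost on leaving out array 7, 8, 9, 13, 14 or 15, and the day 7 call without array 4 or 14 and with only the 6 arrays compared.

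Psmd2, the scaffold of the base that receives shuttle proteins carrying ubiquitinated cargo, had a mean of 7.48 ± 0.14 (SD, n = 3) in uninjured kidney and 8.38 ± 0.27 in UUO. After folic acid its means were 8.60 ± 0.10 (day 3), 8.21 ± 0.44 (day 7) and 8.35 ± 0.21 (day 14). Its lowest injury array, at 7.71, lay above its highest uninjured array, at 7.60. It rose by 1.12, 0.73, 0.87 and 0.91 (adjusted p = 0.00383, 0.0442, 0.0336 and 0.0121). The day 7 call was lost on leaving out any of 10 single arrays, and quantile normalization ended the day 7 and day 14 calls. Averaged over its probe sets, Psmd2 was not called at day 7, at day 14 or in UUO. Those averaged changes were 0.27, 0.38 and 0.38 (adjusted p = 0.210, 0.128 and 0.0661).

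Psmd7, the lid partner of the deubiquitinase Psmd14, read 6.31, 7.94 and 7.11 at day 3 and 5.94, 5.88 and 5.21 in uninjured kidney. It rose by 1.45 (SE 0.43, adjusted p = 0.0359). At day 14 it read 6.18, 4.92 and 5.09, and the difference from day 3 was -1.73 (SE 0.43, adjusted p = 0.0498), the only member called between injury groups. That call was lost on leaving out any of 13 single arrays, and the day 3 call on leaving out array 2, 3, 13, 14 or 15. Averaged over its probe sets, the day 3 change of Psmd7 was 0.35 (adjusted p = 0.175). The averaged difference between day 14 and day 3 was -0.52 (adjusted p = 0.111). Psmd14 itself was at 8.19 ± 0.53 at day 3 and 7.49 ± 0.19 in uninjured kidney, a change of 0.70 with an adjusted p of 0.118.

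The remaining non-ATPases, Psmd1, Psmd3, Psmd4, Psmd8, Psmd11, Psmd12, Psmd13 and Psmd14, had changes between -0.62 and 0.95 and were not called. For Psmd4, the ubiquitin receptor, probe sets disagreed at day 3. The brightest had a change of 0.41 and a dimmer one, with a mean of 5.81, had a change of 1.35 (adjusted p = 0.00480 over probe sets). Sem1, the smallest lid subunit, falls outside the naming rule and rose in all 4 comparisons, by 1.60, 1.35, 1.42 and 1.23 (adjusted p = 0.00105, 0.00461, 0.00608 and 0.00533).

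**Figure D4:**
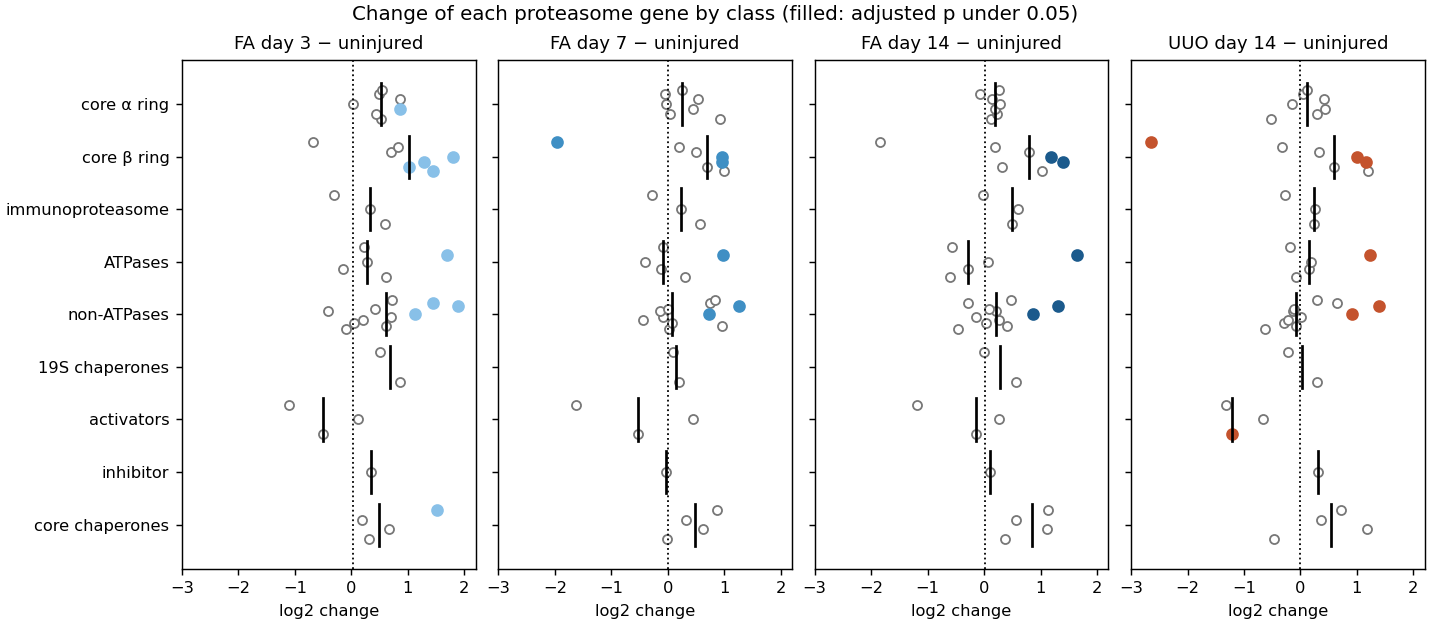
Log2 change of each tested member against uninjured kidney, by role, in the 4 injury groups, with adjusted p under 0.05 filled. Bars mark the median of each class and the dotted line marks the median over all 13523 genes. Filled points sit mainly in the β ring and the non-ATPases. At day 7, day 14 and in UUO the ATPase median is -0.09, -0.29 and 0.16. The non-ATPase median there is 0.07, 0.22 and -0.09. For these 2 classes together, quantile normalization gave -0.12, -0.08 and -0.18, which are not drawn.

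Genes that help build the proteasome were mostly uncalled. Psmg4, a chaperone of α ring assembly, read 5.73, 5.91 and 6.48 at day 3 and 4.66, 4.64 and 4.25 in uninjured kidney. Its uninjured mean of 4.52 lay below the 40th percentile of every array, with 1 of 3 uninjured arrays above its own, so the gene was tested because of its injury arrays and no fold is given. It rose by 1.52 at day 3 (SE 0.42, adjusted p = 0.0276) and had changes of 0.87, 1.14 and 0.71 later, all 12 injury arrays lying above the uninjured arrays. The day 3 call was lost on leaving out array 2, 3, 13, 14 or 15. The chaperones Psmg1, Psmg2 and Psmg3 had changes from -0.46 to 1.19, and Psmg2, at 1.12 at day 14 and 1.19 in UUO, reached adjusted p-values of 0.289 and 0.179. Psmd5 and Psmd9, chaperones of the regulatory particle, changed by 0.87 and 0.50 at day 3 with unadjusted p-values under 0.05 and adjusted p-values of 0.158 and 0.146. Psmf1, an inhibitor of the core, had changes between -0.03 and 0.36.

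Of the interferon-induced cap, Psme1 fell in UUO and Psme2 did not pass the test. Psme1 read 8.84, 9.07 and 8.14 in uninjured kidney, 8.81, 7.71 and 8.03 at day 3 and 8.49, 8.34 and 7.66 at day 7. It read 9.24, 8.18 and 8.23 at day 14 and 7.34, 7.35 and 7.72 in UUO. Only the UUO arrays lay wholly below the uninjured arrays. Psme1 fell by 1.21 in UUO (SE 0.37, 2.32-fold lower, adjusted p = 0.0394), a call lost on leaving out array 3, 10, 11, 12, 13 or 14 and with median centring. Its changes in the folic acid groups were -0.50, -0.52 and -0.14.

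Psme2, its partner in the cap, read 8.16, 7.72 and 7.32 in uninjured kidney, 7.89, 8.03 and 7.63 at day 3 and 7.76, 8.86 and 7.93 at day 7. It read 8.54, 7.46 and 8.01 at day 14 and 6.66, 7.36 and 7.18 in UUO. The UUO arrays were lowest but overlapped the uninjured arrays. The change in UUO was -0.67 (SE 0.34, adjusted p = 0.212). Against folic acid day 14, UUO was lower by a log2 change of -1.08 for Psme1 and -0.93 for Psme2, with no overlap of arrays and adjusted p-values of 0.141 and 0.170. Psme3, which forms a nuclear cap that interferon does not induce, had means of 8.97 ± 0.35 in uninjured kidney and 7.87 ± 2.19, 7.34 ± 0.65, 7.79 ± 0.48 and 7.66 ± 1.31 in the injury groups. Its change ran from -1.63 to -1.11 and was not called, with single arrays from 5.46 to 9.75 at day 3.

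Differences between injury groups were few. Of 43 members 0 were called between UUO and folic acid day 14, where 3.03% of all genes were called in either direction. Between day 7 and day 3, 0 were called (0.695% of all genes), and between day 14 and day 7, 0 were called (0.0518%). By limma's unadjusted p under 0.05, 4 members (9.30%) passed in each of these 3 comparisons, where 17.3%, 11.1% and 8.83% of all genes did. Between day 14 and day 3, 1 member was called, Psmd7 (3.05% of all genes), and 9 passed without adjustment (20.9%, against 16.4% of all genes). The median difference of the members was -0.32 for day 7 against day 3, with 10 of 43 above 0, and -0.25 for day 14 against day 3, with 12 of 43 above 0. Members were also noisier than the typical gene, with a median SD within groups of 0.43 against 0.34 for all genes tested.

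The promoters of the 5 genes that rose in every injury group are shown because these genes moved together. They are the 250 bases before the RefSeq start on the mouse GRCm38.p6 assembly, written 5′ to 3′ along the gene, with motif matches in capitals. Positions are chr11:97703184-97703433 on the plus strand for Psmb3, chr3:94886959-94887208 on the minus strand for Psmb4, chr7:28050093-28050342 on the minus strand for Psmc4, chr16:20651402-20651651 on the plus strand for Psmd2 and chr14:14120946-14121195 on the minus strand for Psmd6.
Psmb3: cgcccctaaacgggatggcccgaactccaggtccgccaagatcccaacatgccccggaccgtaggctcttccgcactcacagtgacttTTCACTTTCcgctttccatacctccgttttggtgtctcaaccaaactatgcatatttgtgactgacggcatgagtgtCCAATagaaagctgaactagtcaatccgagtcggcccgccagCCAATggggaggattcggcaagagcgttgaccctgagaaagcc
Psmb4: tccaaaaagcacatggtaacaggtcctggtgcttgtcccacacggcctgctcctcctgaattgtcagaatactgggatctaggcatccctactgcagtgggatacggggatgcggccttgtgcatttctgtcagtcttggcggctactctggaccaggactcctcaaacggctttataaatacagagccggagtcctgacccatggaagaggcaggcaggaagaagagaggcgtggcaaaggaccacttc
Psmc4: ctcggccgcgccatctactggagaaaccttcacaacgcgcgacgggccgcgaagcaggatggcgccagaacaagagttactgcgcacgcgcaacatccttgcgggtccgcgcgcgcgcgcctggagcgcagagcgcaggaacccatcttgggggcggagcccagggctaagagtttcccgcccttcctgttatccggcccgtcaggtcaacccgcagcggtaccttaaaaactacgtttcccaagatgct
Psmd2: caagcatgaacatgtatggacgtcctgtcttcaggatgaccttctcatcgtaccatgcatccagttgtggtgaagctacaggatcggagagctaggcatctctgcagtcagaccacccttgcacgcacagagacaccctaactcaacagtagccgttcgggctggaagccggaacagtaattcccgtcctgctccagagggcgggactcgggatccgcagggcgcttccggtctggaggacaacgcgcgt
Psmd6: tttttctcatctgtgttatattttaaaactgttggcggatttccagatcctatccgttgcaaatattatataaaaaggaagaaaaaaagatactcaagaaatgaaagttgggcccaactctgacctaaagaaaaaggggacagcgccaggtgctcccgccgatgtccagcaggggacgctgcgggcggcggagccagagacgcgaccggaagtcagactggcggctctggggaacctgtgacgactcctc

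Windows of 37 members were searched on both strands for 4 motifs, whose matches may overlap. The antioxidant response element core, TGACNNNGC, occurred in 10.2% of 32851 promoter windows and in 4 of 37 members, Psmb5, Psmb6, Psmd9 and Psmd12. None of these 4 was called in a comparison with uninjured kidney, and a link between the motif and the changes was not tested. The gamma-activated site, TTCNNNGAA, occurred in 7.02% of windows and in 2 members, Psmb8 and Psmg1. The interferon-stimulated element core, GAAANNGAA, occurred in 7.13% of windows and in 3 members, Psmb3, Psmd4 and Psmd9. The CCAAT box occurred in 33.8% of windows and in 13 members. In the window of Psmb3 the capitals mark 2 CCAAT boxes starting 85 and 43 bases before the start, and an interferon core on the opposite strand starting 162 bases before it. The windows of Psmb4, Psmc4, Psmd2 and Psmd6 held no match to these letters. A match is a description of the letters, and the remaining 8 measured members were not searched.

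Among 17 tested genes that work with the proteasome, such as shuttle factors, deubiquitinases and the regulators Nfe2l1 and Nfe2l2, 1 rose in each comparison with uninjured kidney, Sem1, and 1 fell in UUO. The latter was Uchl5, a deubiquitinase of the regulatory particle, at -1.39 (SE 0.32, adjusted p = 0.0108). The median change of this list was 0.00, -0.13, -0.05 and -0.10. Nfe2l1 had changes of -0.16, -0.28, -0.37 and 0.015 and was not called. Of 6 tested genes of class I antigen processing, Tapbp, which loads peptide on class I molecules, rose by 1.12, 1.14, 1.13 and 0.65 in the 4 groups (adjusted p up to 0.0219). Erap1, a peptide-trimming enzyme, rose by 0.70 at day 3 (adjusted p = 0.0462). The class I heavy chain gene H2-K1 fell by 1.72 at day 3 and 1.96 in UUO (adjusted p = 0.00264 and 0.00111), and H2-D1 fell by 1.37 in UUO (adjusted p = 0.0232). These heavy chain genes are closely alike, and their probe sets were not tested for telling them apart. The median of the list was -0.03, -0.07, 0.11 and 0.01.

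Of 14 tested interferon response genes, Gbp2, a guanylate-binding protein, rose in every group, by 2.28, 2.21, 2.57 and 2.46 (adjusted p up to 0.00173). Its uninjured mean of 4.47 lay below the 40th percentile of every array (4.54 to 4.69), so these rises start from a dim level. Iigp1, an immunity-related GTPase, rose in UUO by 0.81 (adjusted p = 0.0371). The list's median was 0.01, 0.40, 0.28 and 0.31, and its other 12 genes were not called. Of the marker lists, 6, 3, 0 and 9 of 11 proximal tubule genes fell, as did 7, 4, 1 and 11 of 11 distal nephron genes and 4, 3, 0 and 3 of 5 podocyte genes. Among fibroblast markers 5, 5, 6 and 8 of 10 rose, and among macrophage and dendritic cell markers 4, 12, 11 and 3 of 16. Of 9 endothelial markers 3, 1, 0 and 0 rose and 2, 0, 0 and 3 fell. In limma's test 0 of 5 lymphocyte markers were called in each group, also at an unadjusted p under 0.05, and 1 of 2 erythroid markers fell at day 3, at day 7 and in UUO. Of 6 listed genes of ubiquitin supply, 1 was measured and it was too dim to test.

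The calls were also counted without arrays 4, 7 and 8, the injury arrays with the brightest tubule markers, a setting chosen after seeing the data. The part of tubule RNA in the rises was not tested. These arrays belong to days 7 and 14. For day 3 and UUO, leaving them out changed only the shared estimate of spread and no group mean. All 10 day 3 calls stayed, Psmb5 was added at an unchanged 0.70, and the UUO counts stayed at 5 higher and 2 lower. Those counts therefore do not test the part of tubule RNA. At day 7 this setting left Psmb3 (0.90) and Psmb4 (1.11) higher and Psmb7 (-2.42) lower. Psmc4, Psmd2 and Psmd6 were at 0.76, 0.66 and 0.93 there and not called. At day 14 only array 9 remained, which the fit assumes to vary like the other groups. The 5 changes there were 1.25, 0.82, 1.37, 1.07 and 1.06 for Psmb3, Psmb4, Psmc4, Psmd2 and Psmd6, none called, while Psmb7 at -2.79 was called (adjusted p = 0.0300).

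**Figure D5:**
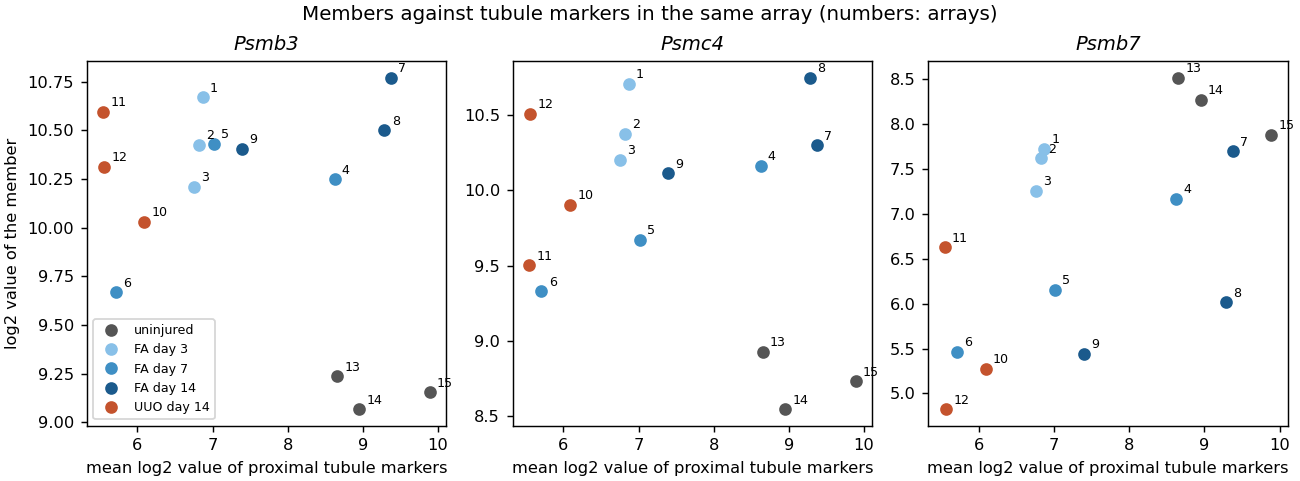
Log2 value of Psmb3, Psmc4 and Psmb7 (vertical axes, which do not start at 0) against the mean log2 value of 11 proximal tubule markers in the same array (horizontal axes), with arrays numbered and coloured by group. Psmb3 and Psmc4 are high in arrays 4, 7 and 8, whose tubule means of 8.62 to 9.38 lie near or within the uninjured range of 8.65 to 9.89.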

How the data were processed

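Each array measured whole-transcript amplified RNA of sorted cells. The authors deposited log2 expression values, made with RMA and the affy and limma packages per the submitters' processing notes, versions not given in the sources used here. RMA subtracts background, quantile normalizes and sums probes, which compresses changes of dim genes. Precision is set by the small number of arrays.

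Of 45141 probe sets, 28898 named 1 gene, 551 several and 15692 none, and the brightest was kept per gene. Genes above the 40th percentile of an array in at least 3 arrays were tested. limma 3.58.1 in R 4.3.3 fitted a mean per group over all 15 arrays, with eBayes and Benjamini-Hochberg adjustment, and was tested on simulated data. Intervals are 95%. Figures used matplotlib 3.10.9.

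Values in every array are given for the catalytic subunits, Psme1, Psme2 and the 4 other members with the smallest F test p (Psmb3, Psmc4, Psmb4, Psmd6). Called members are named in each comparison, and up to 3 called genes of other lists. The members and lists were chosen with earlier results of these data known. Alternatives were quantile normalization, median centring, trended robust variance, array weights, other filters, averaged probe sets, only the arrays compared, single arrays left out and stricter thresholds. Leaving out arrays 4, 7 and 8 together was chosen after seeing the data.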

Additional observations from a re-analysis of the deposited data

Results flagged for a closer look

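Psmd7, the lid partner of the deubiquitinase Psmd14, was lower at folic acid day 14 than at day 3 by a log2 change of -1.73, a difference between time points that passed limma's test. In 4 further members every array of 1 injury group lay on one side of the uninjured mean and every array of another on the other side. These differences in direction were not tested. The share of all genes with such a pattern was not counted, so the 4 cannot be set against a background. Psmd13 had a mean change of 0.21 at day 3, -0.43 at day 7 and -0.22 in UUO. Psmd3 had 0.22 at day 14 and -0.14 in UUO. Psmc3 had 0.18 in UUO and -0.40 at day 7. Psme2 had -0.67 in UUO and 0.45 at day 7.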

How the results depend on the processing

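With 3 arrays a group, many calls lie near the threshold. An adjusted p under 0.01 left 6 members at day 3, 0 at day 7, 2 at day 14, 4 in UUO, 0 between day 14 and day 3 and 3 by the F test. At day 7 the 6 called members became 3 with only the 6 arrays compared, 3 without arrays 4, 7 and 8 and 2 at an absolute log2 change of at least 1. At day 14 the 5 became 3 with averaged probe sets, 3 with only the 6 arrays compared and 1 without arrays 4, 7 and 8, a group then resting on array 9 alone. Psmd7 between day 14 and day 3 was lost, leaving 0, under quantile normalization, trended robust variance, no filter, only the 6 arrays compared and without arrays 4, 7 and 8. Averaged over its probe sets, Psmd7 differed by -0.52 between day 14 and day 3 and was not called either (adjusted p = 0.111). Array weights gave 11 by the F test.

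Leaving out single arrays gave 6 to 11 members at day 3, 1 to 6 at day 7, 2 to 5 at day 14, 5 to 7 in UUO, 0 to 1 between day 14 and day 3 and 3 to 7 by the F test. Such a setting turned the sign of uncalled changes. Psmb8 ran from -0.0069 to 0.70 at day 3 and from -0.055 to 0.53 at day 7, Psme2 from -0.093 to 0.33 at day 3, and Psmb6 from -0.34 to 0.51 at day 7 and from -0.40 to 0.65 at day 14. At day 14 Psmb9 ran from -0.089 to 0.077 and Psme1 from -0.48 to 0.058. Quantile normalization turned Psme2 at day 3 (-0.21) and Psmb6 at day 7 (-0.075) and day 14 (-0.056). Psmb6 at day 14 was -0.09 with array weights and -0.69 without arrays 4, 7 and 8. Without those arrays Psmb8 at day 7 was -0.055 and Psmb9 at day 14 was 0.019. Psmb9 at day 14 was 0.034 with median centring, 0.013 with array weights and 0.10 with averaged probe sets, which gave 0.027 at day 7. The cause was not tested.

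Over all genes, 2304, 1580, 767 and 2244 were called against uninjured kidney at the 3 folic acid times in order and in UUO. These became 1114, 619, 263 and 1128 at an adjusted p under 0.01. Array weights gave 3471 in UUO and 3291 by the F test, in place of 2070, and only the 6 arrays compared gave 397 at day 14. Between injury groups the same setting gave 94 in place of 410 for UUO against day 14, 16 in place of 94 for day 7 against day 3, 0 in place of 7 for day 14 against day 7 and 156 in place of 412 for day 14 against day 3. No paired analysis was possible because the groups share no replicate number.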
